A study of Mus musculus with 6 samples.

Results

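Collagen genes were examined in 3 *Smchd1*+/+ and 3 *Smchd1* MommeD1/MommeD1 embryos, all male, whose whole-embryo RNA was sequenced at E9.5. Members were taken by symbol alone, as every gene of the table whose name is Col, a type number, the letter a and a chain number, which gave 43 of 24207 loci. The family and its classes were chosen with earlier results of these data known. By the type number, 9 genes were fibrillar (types I, II, III, V and XI), 8 belonged to basement membranes (types IV, XV and XVIII) and 26 were other collagens. MommeD1 is a germline nonsense allele made by ENU mutagenesis, so every cell of a mutant embryo is homozygous for it. Whole embryos from matings of heterozygous parents were frozen at dissection, and their yolk sacs served for genotyping. The sample labels name C57Bl6/J x FVB/n as the strain background, whereas the text of the study describes a backcross to 129 T2/SvEms. The values are FPKM, the fragments of a transcript scaled by its length and by all mapped fragments, with 1 value per genotype for its 3 embryos together. There is therefore no spread between embryos, no known depth and no test in what follows. A difference describes these pooled values and may be within the variation between embryos. In whole embryos, more cells of a type and more RNA per cell cannot be told apart.

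Collagens are trimers of chains wound into a triple helix, which needs a glycine at the start of each Gly-X-Y triplet of residues. Fibrillar collagens have a long unbroken helix and pack side by side into the fibrils of mesenchyme, cartilage, skin and bone. Type IV collagens have many breaks in the helix and assemble into the flexible network under epithelia and around vessels, joined by laminins, nidogens and perlecan. The other types coat fibrils (FACIT collagens), form beaded filaments or short-chain networks, or span the cell membrane. In the midgestation embryo, mesenchyme and the notochordal sheath lay down fibrillar collagens before bone or mature cartilage exists.

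The repeat that defines the family is visible in the coding sequences. Stretches of 96 bases are shown for the fibrillar chains *Col3a1* and *Col1a2*, from the middle of their longest repeat, and for the basement membrane chains *Col4a1* and *Col4a2*, across a break between long repeats. They start at base 2038, 1810, 3130 and 2269 of the coding sequence in GENCODE M21, and capitals mark the first bases of each glycine codon (GGN) that opens a Gly-X-Y triplet.
Col3a1: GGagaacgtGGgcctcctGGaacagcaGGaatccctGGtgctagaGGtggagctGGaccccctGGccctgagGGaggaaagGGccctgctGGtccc
Col1a2: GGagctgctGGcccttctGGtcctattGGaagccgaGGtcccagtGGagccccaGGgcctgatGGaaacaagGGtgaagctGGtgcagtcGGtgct
Col4a1: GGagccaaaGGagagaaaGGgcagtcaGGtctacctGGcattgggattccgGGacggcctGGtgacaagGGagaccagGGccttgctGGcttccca
Col4a2: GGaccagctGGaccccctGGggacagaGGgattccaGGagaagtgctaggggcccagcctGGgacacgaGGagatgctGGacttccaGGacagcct
In *Col3a1* and *Col1a2* the capitals recur every 9 bases without a gap. In *Col4a1* a run of 37 triplets ends, 2 codons break the phase, and a run of 38 follows. The break shown for *Col4a2* takes 5 codons and lies between runs of 31 and 66 triplets.

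Over the longest coding sequence of each gene, all 43 collagen genes held an unbroken run of at least 20 in-frame triplets (GGN NNN NNN), against 21 of 21713 other protein-coding genes (0.0967%). The classes differed in how the repeat is divided. The longest run was 337 to 344 triplets in the 9 fibrillar genes, with 2 to 5 runs per gene. In the 8 basement membrane genes it was 30 to 66 triplets, with 13 to 27 runs. The other collagens ranged from 28 triplets (*Col28a1*) to 217 (*Col27a1*, a fibril-like collagen), with 2 to 23 runs. All 3 chains of type IX, a FACIT collagen, had a longest run of 113 triplets, as did *Col22a1*.

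**Figure D1:**
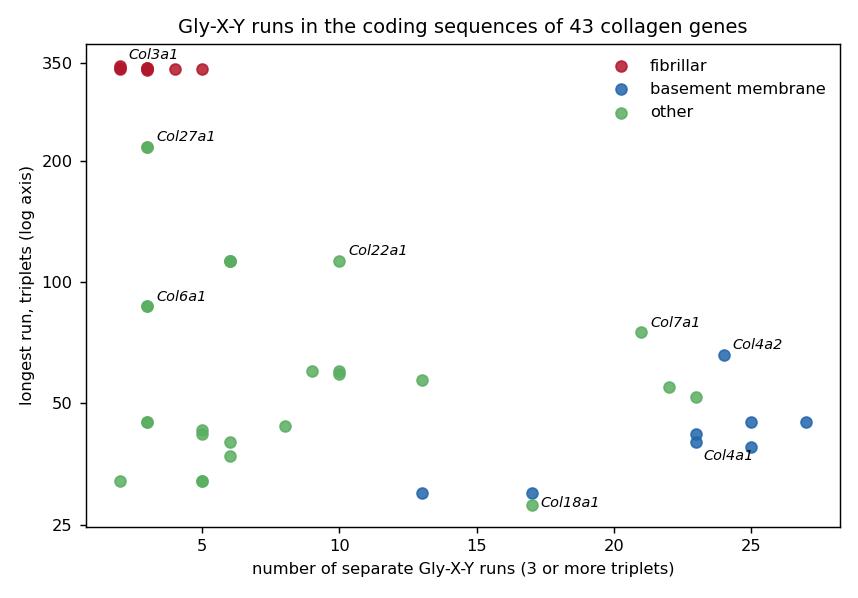
Each point is 1 of 43 collagen genes, by the number of separate Gly-X-Y runs of at least 3 triplets (x axis) and the longest run in triplets (y axis, log scale), coloured by class. The 9 fibrillar genes lie at the top left, between 337 and 344 triplets, and the 8 basement membrane genes lie at the lower right, between 30 and 66.

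Collagen transcripts made up 0.0565% of all FPKM in *Smchd1* MommeD1/MommeD1 embryos (532.2 of 941511 FPKM) and 0.0466% in *Smchd1*+/+ embryos (451.9 of 970248 FPKM). A few genes carried most of this. The 7 most abundant genes were *Col3a1*, *Col18a1*, *Col2a1*, *Col1a1*, *Col4a1*, *Col1a2* and *Col4a2*, with 81.9% of the collagen FPKM in either genotype. Fibrillar genes held 56.5% of collagen FPKM in mutant and 52.5% in wildtype embryos, basement membrane genes 35.9% and 40.2%, and other collagens 7.55% and 7.31%. The order of levels at the top differed between the genotypes. In *Smchd1*+/+ embryos *Col18a1* was the most abundant collagen and *Col3a1* came next, and in mutant embryos these were the other way round.

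**Figure D2:**
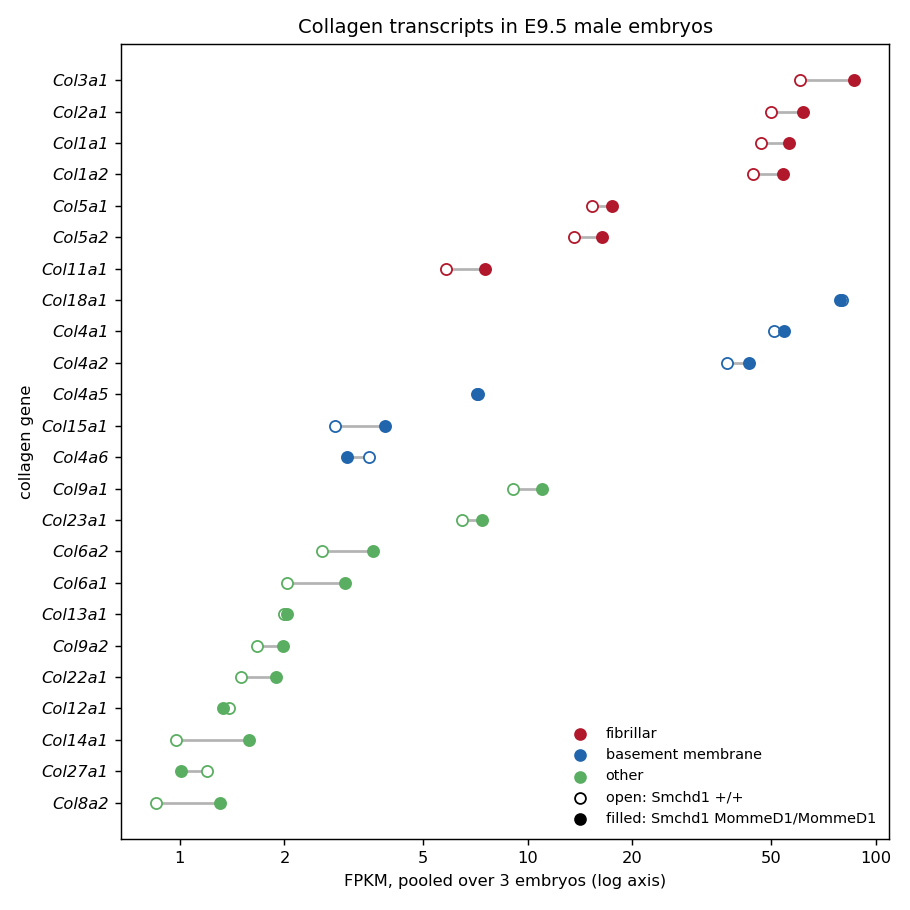
Pooled FPKM (x axis, log scale) of the 24 collagen genes that averaged 1 FPKM or more, with wildtype values as open and mutant values as filled circles, coloured by class. The filled circle lies to the right of the open one for every fibrillar gene, whereas *Col18a1* and *Col4a5* nearly coincide.

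Averaged over the genotypes, 24 of the 43 genes reached 1 FPKM, and log2 ratios of mutant over wildtype were read for these after 0.1 FPKM had been added to each value. Collagen transcripts were slightly higher in *Smchd1* MommeD1/MommeD1 embryos in most cases. The log2 ratio was above 0 for 20 of the 24 genes (83.3%), against 48.3% of the 12345 loci that passed the same filter, and below 0 for 4, against 51.7%. The median log2 ratio was 0.27 over the 24 genes and -0.01 over all these loci. The differences were small. 1 collagen, *Col14a1*, was past 1.5-fold higher (4.17% of the 24, against 3.54% of all loci), which is close to the share among all loci, and 0 were past 1.5-fold lower (1.46% of all loci). At a smaller size, a log2 ratio of at least 0.32, 7 of 24 were higher (29.2%), against 8.89% of all loci, and 0 were as much lower, against 4.98%. The filter can favour genes that are high in 1 genotype, and *Col14a1* and *Col8a2*, both among these 7, had a wildtype value below 1 FPKM. With the filter placed on the wildtype value instead, 18 of 22 collagens were higher at any size, against 47.1% of the loci so chosen. The rest of the 7, *Col3a1*, *Col11a1*, *Col15a1*, *Col6a1* and *Col6a2*, were above 1 FPKM in wildtypes. The share of all loci at a log2 ratio of 0.32 was not counted with that filter. Without a filter, 31 of the 42 collagens above 0 in either genotype were higher in mutants, against 51.2% of all such loci.

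The classes stood at different values, and no test of this difference was possible. All 7 fibrillar genes that passed the filter were higher in mutant embryos, with log2 ratios of 0.19 to 0.51 and a median of 0.29. Of the 6 basement membrane genes, 4 were higher and 2 lower, with a median of 0.06. Of the 11 other collagens, 9 were higher and 2 lower, with a median of 0.28. Among the 9, *Col14a1* and *Col8a2* passed the filter only through their mutant values. With the filter on the wildtype value, 7 other collagens were higher and the same 2 lower, with a median of 0.24. Summed over the genes that passed, fibrillar transcripts were at 300.3 and 236.6 FPKM in mutant and wildtype embryos (log2 ratio 0.34), and basement membrane transcripts at 191.1 and 181.8 FPKM (log2 ratio 0.07).

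**Figure D3:**
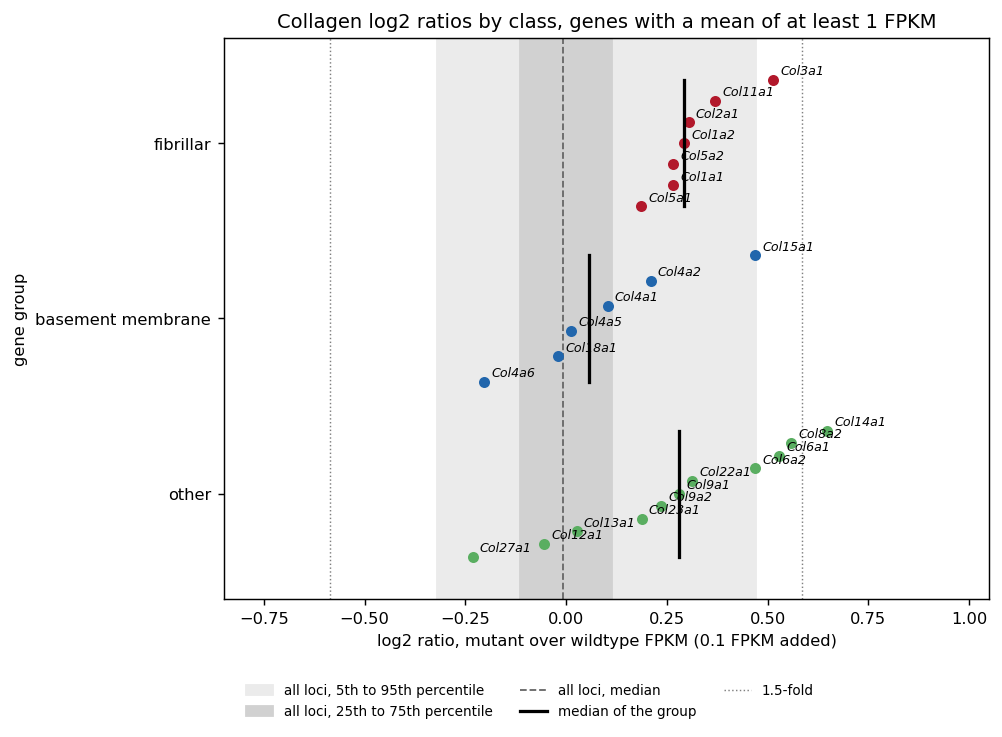
Log2 ratio of mutant over wildtype FPKM (x axis, 0.1 FPKM added) for the 24 collagen genes, by class, with black bars for class medians and grey bands for the central 50% and 90% of the 12345 loci. All 7 fibrillar genes lie to the right of the inner band, the basement membrane genes spread around 0 from -0.20 to 0.47, and *Col14a1* alone passes the 1.5-fold line.

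*Col3a1* encodes the only chain of type III collagen, a fibril former of soft connective tissue and vessel walls. It lies at chr1:45311538-45349706 of mm10 and measured 86.7 FPKM in *Smchd1* MommeD1/MommeD1 against 60.7 FPKM in *Smchd1*+/+ embryos. Its log2 ratio of 0.51 was higher than that of 99.4% of the 500 loci nearest to it in mean FPKM. This percentile sets a gene beside others of like abundance in the same pooled values and is not a test. In absolute terms *Col3a1* also differed most among the 43 collagens, by 26 FPKM.

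The chains of type I collagen, the main fibril of bone, skin and tendon, were lower in level than *Col3a1* and close to each other. *Col1a1* (chr11:94936175-94953039) was at 56.3 and 46.9 FPKM in mutant and wildtype embryos, a log2 ratio of 0.26 at percentile 95.8. *Col1a2* (chr6:4505697-4541543) was at 54.2 and 44.3 FPKM, a log2 ratio of 0.29 at percentile 96.8. Although on different chromosomes, they had nearly the same level and ratio. *Col2a1*, the collagen of cartilage and of the sheath around the notochord, was at 61.8 and 50.1 FPKM, a log2 ratio of 0.30 at percentile 98.0.

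Types V and XI are minor fibrillar collagens that start fibrils and set their width. *Col5a1* was at 17.4 and 15.3 FPKM in mutant and wildtype embryos (log2 ratio 0.19, percentile 89.8). *Col5a2* was at 16.3 and 13.5 FPKM (0.27, percentile 93.6), and *Col11a1*, the type XI chain of early cartilage, at 7.56 and 5.83 FPKM (0.37, percentile 92.6). These 3 genes were higher in mutants as well, at lower percentiles than the abundant fibrillar genes. The remaining fibrillar genes, *Col5a3* and *Col11a2*, were low. *Col5a3* was at 0.347 and 0.128 FPKM, and *Col11a2* at 0.269 and 0.285 FPKM.

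The basement membrane genes were less uniform. *Col18a1*, whose product carries the endostatin domain at its end, was at 79.0 and 80.1 FPKM (log2 ratio -0.02, percentile 52.2), and its ratio turned to 0.024 when both genotypes were scaled to the same summed FPKM. *Col4a1* and *Col4a2*, the ubiquitous type IV chains, were at 54.6 and 50.9 FPKM (0.10, percentile 84.8) and at 43.3 and 37.4 FPKM (0.21, percentile 94.6). The table assigns both to the same span of chromosome 8, from 11198423 to 11449287, on which they are transcribed away from each other. RefSeq places their starts 21 bases apart and overlapping (build GRCm38.p6). Since the libraries were nondirectional, reads from overlapping parts of the pair could not be told apart by strand.

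*Col4a5* and *Col4a6*, X-linked type IV chains whose starts RefSeq places 1343 bases apart, were lower in level. *Col4a5* was at 7.20 and 7.14 FPKM (log2 ratio 0.01, percentile 51.4), and *Col4a6* at 3.02 and 3.49 FPKM (-0.20, percentile 17.6). *Col4a6* was the only type IV gene above the filter that was lower in mutants. *Col15a1*, a type XV chain of vessel and muscle basement membranes and the closest relative of *Col18a1*, stood apart from its class at 3.90 and 2.79 FPKM (0.47, percentile 91.2). The remaining pair, *Col4a3* and *Col4a4*, known from the kidney glomerulus, was near 0, at 0.0133 and 0.0225 FPKM for *Col4a3* and 0.0294 and 0.0302 FPKM for *Col4a4*.

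Among the other collagens, type VI forms beaded filaments around cells, and its 3 main chains were all higher in mutants. *Col6a1* was at 2.98 and 2.03 FPKM (log2 ratio 0.53, percentile 92.2), and its neighbour on chromosome 10, *Col6a2*, at 3.59 and 2.57 FPKM (0.47, percentile 90.2). *Col6a3*, the remaining chain of the trimer, was at 0.713 and 0.393 FPKM. The next collagen locus on that chromosome is *Col18a1*, 326134 bases beyond *Col6a1*, with its log2 ratio of -0.02. *Col6a4*, *Col6a5* and *Col6a6*, which lie in a row on chromosome 9, were all below 0.03 FPKM.

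FACIT collagens decorate the surface of fibrils. *Col9a1*, the most abundant of them and a partner of type II fibrils, was at 11 and 9.04 FPKM (log2 ratio 0.28, percentile 90.8), and *Col9a2* at 1.98 and 1.67 FPKM (0.24, percentile 72.6). *Col14a1*, a partner of type I fibrils, was at 1.58 and 0.973 FPKM (0.65, percentile 88.8). Its ratio was the highest of the 24 genes, but it was at 0.39, no longer past 1.5-fold, with 1 FPKM added in place of 0.1. *Col22a1* was at 1.89 and 1.5 FPKM (0.31, percentile 79.6), whereas *Col12a1*, another partner of type I fibrils, was at 1.33 and 1.39 FPKM (-0.06, percentile 34.2).

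The transmembrane and network collagens were mixed. *Col23a1* was at 7.38 and 6.47 FPKM (log2 ratio 0.19, percentile 82.0), and *Col13a1* at 2.03 and 1.99 FPKM (0.03, percentile 45.0), which turned to -0.085 once a trend with abundance, length and GC content was removed. *Col8a2*, a short-chain network collagen of the cornea and vessels, was at 1.31 and 0.856 FPKM (0.56, percentile 84.0). *Col27a1*, a fibril-like collagen of developing cartilage, was lower in mutants, at 1.01 and 1.20 FPKM (-0.23, percentile 16.8). It has the longest Gly-X-Y run outside the fibrillar class and the lowest ratio of the 24 genes.

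The 19 collagens below the filter reached at most 0.952 FPKM in mutants and 0.731 FPKM in wildtypes, both for *Col25a1*. Of the 18 of them above 0, 11 were higher and 7 lower in mutants, with a median log2 ratio of 0.12 and a range of -0.27 to 0.97. Of the 7077 loci equally low but above 0, 56.4% were higher, a share close to that of these collagens. In this group only *Col5a3* and *Col6a3* were past 1.5-fold higher, a share of the 18 close to the 11.3% among such loci. In the lower direction 0 were past 1.5-fold, against 5.74%. *Col10a1*, a marker of hypertrophic cartilage, was listed at 0 in both genotypes. Among genes picked after their values were seen, *Col7a1*, the anchoring fibril of skin, was at 0.233 and 0.302 FPKM, and *Col17a1*, a part of hemidesmosomes, at 0.102 and 0.0722 FPKM.

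Ratios between chains that assemble together do not depend on how the genotypes were scaled to each other, and FPKM allows them to be compared per length. For the abundant trimers they were nearly equal between the genotypes. *Col1a1* over *Col1a2* was 1.04 in mutant and 1.06 in wildtype embryos, although the main type I trimer holds more α1 than α2 chains. *Col4a1* over *Col4a2* was 1.26 and 1.36, *Col5a1* over *Col5a2* 1.07 and 1.13, and *Col6a1* over *Col6a2* 0.829 and 0.792. The FACIT chains kept their ratios as well, with *Col9a1* over *Col9a2* at 5.54 and 5.41 and *Col9a2* over *Col9a3* at 2.77 in either genotype. *Col4a5* over *Col4a6* was 2.38 and 2.04.

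The ratios that differed most involved a low chain. *Col11a1* over *Col11a2* was 28.1 in mutant and 20.4 in wildtype embryos, *Col8a1* over *Col8a2* 0.242 and 0.335, and *Col6a1* over *Col6a3* 4.18 and 5.18. Each of these pairs holds a chain below 1 FPKM in both genotypes. So does *Col9a2* over *Col9a3*, with *Col9a3* at 0.717 and 0.604 FPKM, and its ratio was the same in both.

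**Figure D4:**
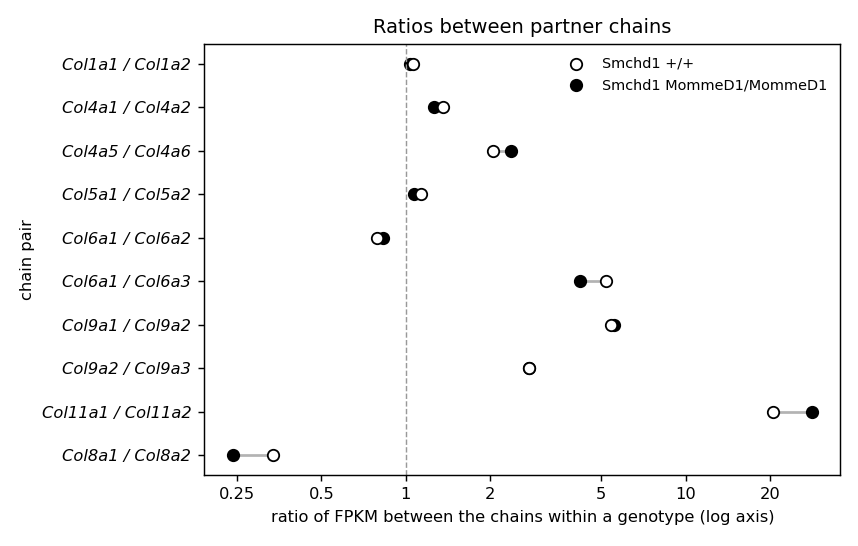
Ratio of FPKM between partner chains (x axis, log scale) for 10 chain pairs, with wildtype embryos as open and mutant embryos as filled circles. The pairs of types I, V and IX nearly coincide between genotypes, and the widest gaps belong to *Col11a1* over *Col11a2* and *Col8a1* over *Col8a2*.

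Genes that make, bind or break down collagen were read in the same way, over those that averaged 1 FPKM or more. Among all loci so filtered, 48.3% were higher, 3.54% past 1.5-fold higher and 1.46% past 1.5-fold lower. The machinery that folds and modifies chains in the endoplasmic reticulum was even between the genotypes. Of 19 such genes, 9 were higher and 10 lower in mutants, with a median log2 ratio of -0.01 and 0 past 1.5-fold in either direction. Its most abundant member, *Serpinh1*, the collagen chaperone, was at 314 and 278 FPKM (0.18). *Leprel1*, a prolyl 3-hydroxylase known to act on type IV collagen, was at 5.50 and 8.22 FPKM (-0.57) and was picked out after its value was seen.

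Outside the cell the values were more mixed. Of 6 genes for propeptide removal and crosslinking, 4 were higher and 2 lower (66.7% higher, median 0.26, 0 past 1.5-fold), and *Pcolce*, which helps to cleave the end of fibrillar procollagens, was at 33.8 and 23 FPKM (0.55). Among the higher genes, *Loxl3*, at 1.12 and 0.902 FPKM (0.29), passed the filter only through its mutant value. Below the filter the list went both ways, with *Adamts2* at 0.916 and 1.08 FPKM (-0.21) and *Lox* at 0.835 and 0.483 FPKM (0.68). Of 8 genes for collagen breakdown and its inhibition, 7 were higher (87.5%, median 0.14, 0 past 1.5-fold), with *Mmp2* at 30.3 and 28.9 FPKM (0.07). The 7 include the protease inhibitors *Timp1* (0.17), *Timp2* (0.19) and *Timp3* (0.001), which do not break down collagen. *Mmp8* and *Mmp13* were listed at 0. Below the filter, *Mmp9* was lower in mutants, at 0.501 and 1.09 FPKM (-0.98), and *Ctsk* was higher, at 0.628 and 0.403 FPKM (0.53). Among 5 collagen receptors, 3 were higher (60%, against 48.3% of all loci, median 0.34) and 2 of these were past 1.5-fold (40%, against 3.54%), namely *Gpr56*, a receptor for type III collagen, at 20 and 11.5 FPKM (0.79), and *Ddr2*, a receptor kinase for fibrillar collagens, at 6.80 and 4.45 FPKM (0.60). *Itgb1*, the shared integrin chain, was at 78.1 and 85.4 FPKM (-0.13).

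The partners of basement membrane collagens did not share the difference of the fibrillar genes. Of 13 laminin, nidogen and other partner genes, 6 were higher and 7 lower in mutants, with a median log2 ratio of -0.11. *Pxdn*, which crosslinks type IV collagen, was at 48.2 and 52.1 FPKM (-0.11), and the 1 gene past 1.5-fold, *Lamc3*, was at 1.29 and 0.773 FPKM (0.67) and passed the filter only through its mutant value. Of 15 interstitial matrix partners, 8 were higher and 7 lower (median 0.03). The 3 past 1.5-fold higher (20%, against 3.54% of all loci) were *Thbs1* at 11.6 and 7.31 FPKM (0.66), *Fbln2* at 6.33 and 4.17 FPKM (0.59) and *Fmod*, which binds fibrils, at 2.11 and 1.26 FPKM (0.70). *Fn1*, the fibronectin on which early fibrils assemble, was at 87.0 and 110 FPKM (-0.34), opposite to the fibrillar collagens. Of 8 regulators of collagen genes, 7 were higher (87.5%, against 48.3% of all loci, median 0.14, 0 past 1.5-fold), with *Twist1* at 57.8 and 54.5 FPKM (0.09).

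**Figure D5:**
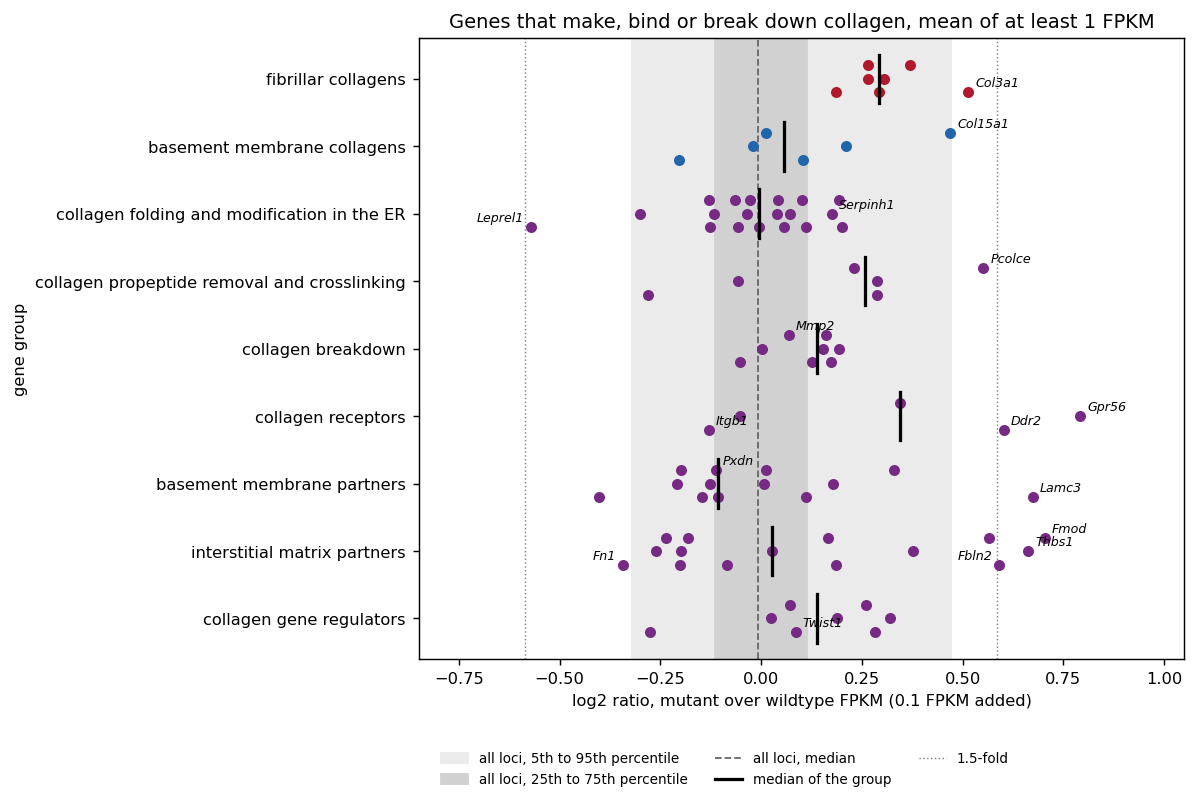
Log2 ratio of mutant over wildtype FPKM (x axis, 0.1 FPKM added) for fibrillar and basement membrane collagens and for 7 lists of related genes, of those that averaged 1 FPKM or more, with black bars for medians and grey bands for the central 50% and 90% of all loci. The median is 0.29 for fibrillar collagens, -0.01 for the folding machinery and -0.11 for basement membrane partners.

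*Smchd1* itself was at 2.12 FPKM in mutants against 34.0 FPKM in wildtypes. Markers of the mesenchyme and sclerotome, which produce fibrillar collagens, had a median log2 ratio of 0.03 and sums of 190.7 and 181.6 FPKM (most abundant *Twist1*). Of these markers, 6 of 9 were higher (66.7%, against 48.3% of all loci) and 3 lower. The largest difference was that of *Prrx1*, at 30.1 and 21.4 FPKM (0.49). Endothelium (2 of 6 higher, median -0.03, sums 74.1 and 76.5 FPKM), parietal endoderm (3 of 5, median 0.11, sums 42.2 and 38.7 FPKM) and neural crest (1 of 6, median -0.10, sums 54.7 and 55.5 FPKM) were near even. Notochord and floor plate markers were near even by the median but not by the sum (2 of 4 higher, median -0.02, sums 17.9 and 22 FPKM, log2 ratio of sums -0.29). Among them *T*, a notochord and tail bud gene, was at 3.23 and 7.75 FPKM. *Noto*, below the filter, was at 0.305 and 0.604 FPKM. The most abundant genes of these 4 lists were, in the same order, *Cdh5* at 19.1 and 19.7 FPKM, *Pth1r* at 16.1 and 11.9 FPKM, *Ets1* at 19.2 and 22 FPKM and *Shh* at 8.22 and 7.59 FPKM. By the median, other cell types differed more. Neurons (4 of 4 higher, median 1.29, sums 133.1 and 52.4 FPKM) and erythroid cells (6 of 6, median 1.01, sums 12679 and 6000 FPKM) were higher in mutants. Visceral endoderm (1 of 4 higher, median -0.86, sums 25.3 and 30.5 FPKM), surface ectoderm (1 of 5, median -0.30, sums 119 and 173 FPKM) and heart muscle (1 of 5, median -0.24, sums 770 and 927 FPKM) were lower. Their most abundant genes were *Tubb3* at 99.9 and 37 FPKM, *Hba-x* at 4602 and 2274 FPKM, *Krt8* at 46.8 and 73.1 FPKM, *Myl7* at 317 and 425 FPKM and, against the rest of visceral endoderm, *Afp* at 14.7 and 8.1 FPKM. No marker was at 0 in both genotypes. Whether cell content, stage or strain background had a part in the collagen values was not tested.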

How the data were processed

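RNA-seq of 6 male embryos at E9.5 was used, with 3 embryos for each genotype as given in the sample labels. According to the submitters' processing notes and the study's methods, the authors aligned the reads to mm10 with TopHat2 2.0.6 and Bowtie2 2.0.2 and compared the genotypes with Cufflinks and Cuffdiff 2.0.2. The authors' table holds 1 deposited FPKM value per genotype and locus. Its columns of fold change, test statistic, p-value, q-value and significance are the authors' own comparison and were not used. The table names its columns M and P, and these were read as mutant and wildtype from the headers of the study's own copy of the table. It has no read counts and no values per embryo, which leaves the depth unknown, and neither intervals nor p-values were computed.

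Of 24207 loci, 134 that failed and 1 with too many reads in the authors' run were left out of the log2 ratios and counts. The sums of all FPKM, and the shares and scaling taken from them, kept every locus. Log2 ratios were taken with 0.1 FPKM added, for the 12345 loci that averaged 1 FPKM or more, and were called past 1.5-fold. Each of the 24 collagens among them was also given its percentile among the 500 loci nearest in mean FPKM. Locus starts were converted to counting from 1. All 43 genes matched a GENCODE M21 coding sequence, of which the longest was searched, and 2 pairs of transcript starts came from RefSeq. Genes were named by a rule, namely each collagen above this filter, its chain partners below it, the most abundant member of each list of related genes and that list's members past 1.5-fold, with the other low collagens given by their range. Of each marker list the most abundant member was named, and any further gene, such as *T*, *Leprel1*, *Mmp8*, *Mmp13* and the low collagens that are no such partner, was picked after its value was seen. The collagens, classes and lists were chosen with earlier results of these data known. The fold calls and the search for triplet runs were tested on simulated data without noise. This tests how the values were computed and not the variation between embryos. Python 3.11.15, numpy 2.4.6, pandas 2.3.3 and matplotlib 3.10.9 were used.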

Additional observations from a re-analysis of the deposited data

How the results depend on the processing

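With 1 pooled value per genotype, no embryo could be left out. No paired analysis was possible because the table holds no values per embryo. In all alternatives the fibrillar median log2 ratio stayed between 0.27 and 0.34 and the basement membrane median between 0.00 and 0.10. The median of the other collagens stayed between 0.21 and 0.32. The wildtype filter and the removal of the trend with mean FPKM, transcript length and GC content were alternatives chosen after seeing the data. All 7 fibrillar genes above 1 FPKM were higher in each alternative, and *Col5a3* joined them with a filter of 0.1 FPKM or none, whereas *Col11a2* was lower.

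The number of collagens past the fold was small. It was 1 higher, the value reported, when centred on the median locus, with the same upper quartile, over loci with 1 symbol and with the trend removed. It was 2 higher with 0.01 FPKM added or with the same summed FPKM, 0 with 1 FPKM added, 3 with a filter of 0.1 FPKM or without one, 0 with a filter of 5 FPKM or with wildtype at least 1 FPKM, 7 at a log2 ratio of 0.32 and 0 at 2-fold, and 0 were past the fold in the lower direction in each. A filter of 0.1 FPKM left 7 collagens lower and 14 other collagens higher. A filter of 5 FPKM left 13 collagens, 12 higher and 1 lower, with 2 other collagens higher, and no filter left 42, 31 higher and 11 lower, with 19 other collagens higher. Of 144 gene values under pseudocounts, scalings and the trend, 2 reversed, *Col18a1* to 0.024 with the same summed FPKM and *Col13a1* to -0.085 with the trend removed, both near 0 before. Over loci with a gene symbol, collagens made up 0.0895% of FPKM in mutant and 0.0768% in wildtype embryos.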
